A study of Mus musculus with 6 samples.

Results

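Notch signaling passes between touching cells. Jagged and Delta-like ligands on one cell bind Notch receptors on the next, ADAM proteases and then gamma-secretase cut the receptor, and the freed intracellular piece joins RBPJ and a Mastermind protein in the nucleus, where it turns on genes of the Hes and Hey families. In bone the pathway is known to act both in the osteoblast lineage and in the marrow precursors that become osteoclasts. The genes described here are the 4 receptors Notch1, Notch2, Notch3 and Notch4, the 4 ligands Jag1, Jag2, Dll1 and Dll4, and the target genes Hes1 and Hey1. They were taken as every transcript probe that the array files name after one of these 10 genes, which gave 15 probes of the 56605 on the array and 10 of its 37074 gene names.

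RNA came from osteoclasts grown from bone marrow of 3 Ano1fl/fl mice and of 3 Ctsk-Cre;Ano1fl/fl littermates, and each mouse gave 1 array. In Ano1fl/fl mice the gene for Ano1, a calcium-activated chloride channel, carries loxP sites and is otherwise left in place. In Ctsk-Cre;Ano1fl/fl mice the same floxed alleles are present together with Cre recombinase under the cathepsin K promoter, which is active in osteoclasts, so that Ano1 is meant to be cut out there. All 6 cultures received RANKL, the cytokine that drives osteoclast formation, for 5 days. The methods describe osteoclast cultures, without singling out those for the arrays, as made from mice of 6 to 8 weeks with 50 ng/ml RANKL and 30 ng/ml M-CSF.

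On none of the 6 arrays did the Ano1 probe rise well above background, with processed signals of 3.23 to 3.91, so it cannot check the labels and every direction below is by label. The osteoclast genes Acp5 and Tcirg1 were well above background on every array. Of the 14 osteoclast markers tested, 13 were higher and 1 was lower on the arrays labelled Ctsk-Cre;Ano1fl/fl by each gene's brightest probe. Of all genes tested in this way, 23.0% were called higher and 28.5% lower. The probes of Nfatc1, the master transcription factor of osteoclasts, disagreed, with the brighter called higher (0.53, limma adjusted p = 0.00395) and the other (A_51_P517870) lower (-0.53, limma adjusted p = 0.0138). The prevailing direction is opposite to the one that the study describes for such markers in osteoclasts of these mice, and that of the dimmer Nfatc1 probe is not, and whether the labels and arrays match could not be checked. The arrays shared 1 slide and 1 scan. The scanner software marked 33480 to 34951 of 59305 transcript spots per array as well above background. Arrays of 1 group correlated at Pearson's r of 0.994 to 0.997 and arrays of different groups at 0.944 to 0.950, taken across probes, which are no independent replicates. The RNA was taken from whole cultures, in which a change in the number of cells of a type and a change in RNA per cell cannot be told apart.

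A probe reads only the stretch of transcript it pairs with, and 4 of the 10 genes had more than 1 probe, with unequal results. The following 60-base sequences, written as the array file gives them, are shown because the readings of Notch1 and Notch4 differ between their probes. Whether probe position accounts for this was not tested. The Notch1 sequence is the probe behind the fall of Notch1, at position 5898 of transcript NM_008714 and chr2:26319440-26319499 of mm9. The Notch4 sequence is a probe for the same transcript as the one that fell, NM_010929, at position 4664, and it stayed at the floor of the signal on all 6 arrays. Its mm9 span, chr17:34721567-34721775, is 149 bases longer than the probe, so the file places it across a gap in the genome.
Notch1 A_55_P2171897: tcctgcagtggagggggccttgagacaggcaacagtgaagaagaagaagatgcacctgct
Notch4 A_55_P2740966: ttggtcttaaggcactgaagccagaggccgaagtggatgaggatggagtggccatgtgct

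Processed signals, the brightness of a spot after the scanner software removed background, were put on the log2 scale and quantile normalized between arrays. For a test, at least 1 group had to have the probe well above background on each of its 3 arrays. Each difference is the log2 value of Ctsk-Cre;Ano1fl/fl minus that of Ano1fl/fl, the standard error (SE) comes from limma, and p was adjusted by the Benjamini-Hochberg method over all 31848 probes tested. Of the 15 probes, 9 probes of 8 genes were tested, 5 were below background on all 6 arrays and 1, that of Jag2, passed on only 2 arrays. Among the 9 tested, 5 were higher (Dll4, Dll1, Notch3, Hey1 and Jag1), 3 were lower (Notch4, 1 Notch1 probe and Notch2) and 1 Notch1 probe did not pass. Over all probes tested, 21.8% were called higher, 30.6% lower and 52.4% in either direction, so a call on these arrays is common. The Dll1 and Dll4 probes passed the filter through the Ctsk-Cre;Ano1fl/fl arrays alone and so had to differ. Where all 6 arrays had to be well above background, 3 of the 6 Notch probes left were higher and 3 were lower, where 20.7% and 30.7% of all 28597 such probes were, and 51.4% in either direction.

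**Figure D1:**
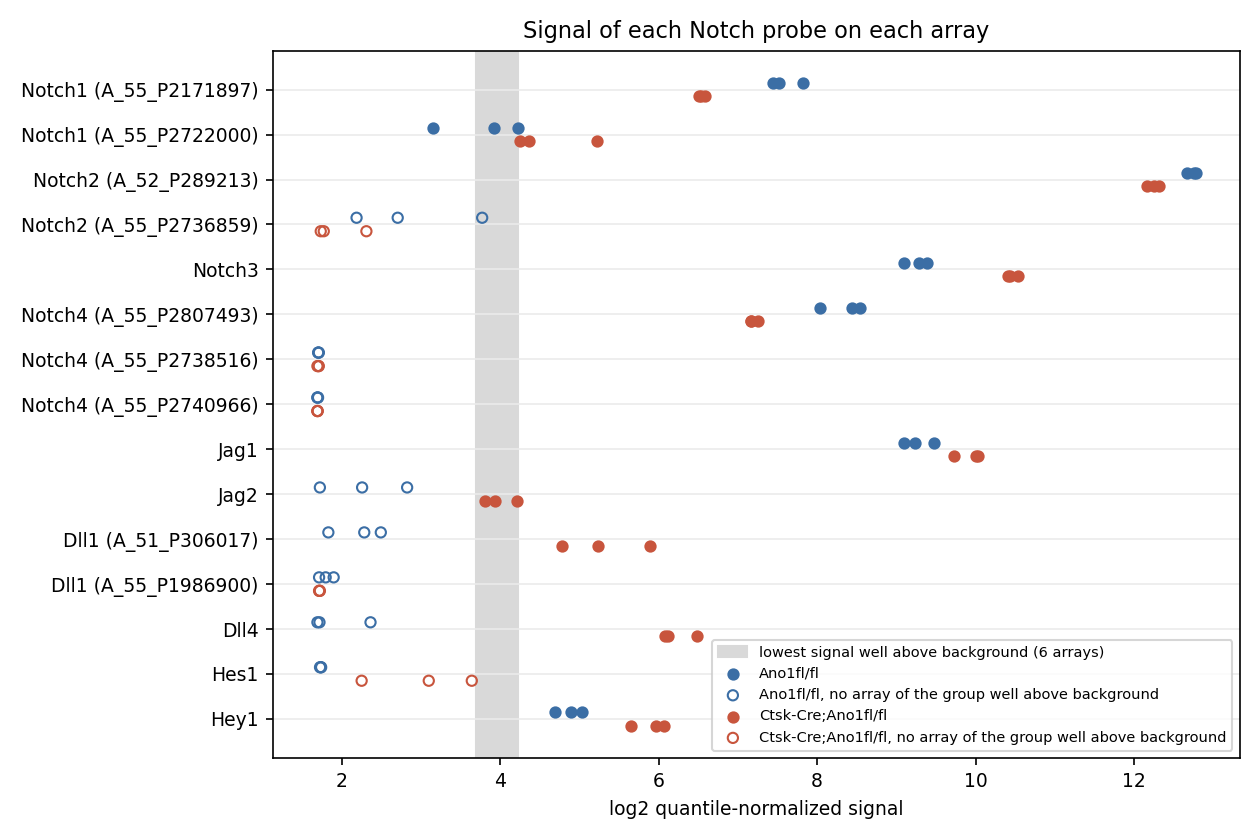
Log2 quantile-normalized signal (x axis) of the 15 probes on each of the 6 arrays, 1 point per array, blue for Ano1fl/fl and red for Ctsk-Cre;Ano1fl/fl, with open points where no array of that group was well above background and a grey band for the range over arrays of the lowest signal that was. Notch1 (A_55_P2171897), Notch2 (A_52_P289213) and Notch4 (A_55_P2807493) lie lower in red, Notch3, Jag1, Dll1 (A_51_P306017), Dll4 and Hey1 lie higher in red, and both other Notch4 probes sit below the band on all 6 arrays. Positions along the axis are not comparable between probes.

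The receptors moved in opposite directions, with Notch3 higher and Notch1, Notch2 and Notch4 lower on the arrays labelled Ctsk-Cre;Ano1fl/fl. Notch3 is known best from mural cells, the pericytes and smooth muscle cells around vessels. Its probe (A_55_P2856510, chr17:32257888-32257947 of mm9) had processed signals of 631, 685 and 645 on the Ano1fl/fl arrays, against 1418, 1198 and 1288 on the Ctsk-Cre;Ano1fl/fl arrays. The groups lay well apart, each within a narrow band. On the normalized log2 scale the means were 9.25 ± 0.15 and 10.46 ± 0.07 (SD, n = 3 each), a difference of 1.21 (SE 0.10, limma adjusted p = 0.000227), or 2.31-fold. Of all probes tested, 92.4% had a lower difference.

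Notch4 is known for its place in vascular endothelium. Its probe near the 3′ end (A_55_P2807493, position 6499 of NM_010929, chr17:34725384-34725442) had signals of 249, 383 and 448 on the Ano1fl/fl arrays, against 149, 125 and 134 on the Ctsk-Cre;Ano1fl/fl arrays. The Ano1fl/fl arrays spread more widely than the others, and all 3 lay above them. The log2 means were 8.34 ± 0.27 and 7.20 ± 0.05 (SD, n = 3 each), and Notch4 fell by 1.14 (SE 0.14, limma adjusted p = 0.00101). The gapped probe printed above, 3.6 kb away, read 3.01 to 3.68 on all 6 arrays, which is background. The remaining Notch4 probe (A_55_P2738516), drawn from the clone AK166493, also read background on all 6 arrays, at 3.05 to 3.69. It is placed 379.3 kb from the 3′ probe. The fall of Notch4 therefore rests on 1 of its 3 probes.

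Notch1, a receptor that marrow progenitors and lymphoid cells use, was read by a pair of probes that disagreed. The probe printed above, 34.6 kb from the other, had signals of 176, 248 and 209 on the Ano1fl/fl arrays, against 93.6, 78.3 and 84.9 on the Ctsk-Cre;Ano1fl/fl arrays. Every Ctsk-Cre;Ano1fl/fl array lay below every Ano1fl/fl array. The log2 means were 7.60 ± 0.20 and 6.54 ± 0.04 (SD, n = 3 each), and this probe fell by 1.05 (SE 0.11, limma adjusted p = 0.000569). The other probe (A_55_P2722000, Ensembl transcript ENSMUST00000131393, chr2:26354049-26354108) lay close to background, at 17.5, 16.0 and 10.2 on the Ano1fl/fl arrays, against 38.8, 16.3 and 19.5 on the Ctsk-Cre;Ano1fl/fl arrays. It passed the background mark on 2 of the 3 Ano1fl/fl arrays, and its difference of 0.85 (95% interval -0.01 to 1.71) did not pass (limma adjusted p = 0.0887). With the mean of both probes standing for the gene, the difference of Notch1 was -0.10 (limma adjusted p = 0.693). That mean includes the probe close to background, which met the filter through the Ctsk-Cre;Ano1fl/fl arrays alone, where it is high. The fall of Notch1 therefore rests on its brighter probe alone, and the mean does not decide between the probes.

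Notch2, the receptor that gain-of-function mutations tie to the bone loss of Hajdu-Cheney syndrome, fell on the arrays labelled Ctsk-Cre;Ano1fl/fl by less than the other receptors' called probes moved. Its probe (A_52_P289213, position 10129 of NM_010928, chr3:97953914-97953973) had signals of 6657, 7536 and 8451 against 5120, 3928 and 4299. Both groups were tight after normalization, at 12.74 ± 0.05 and 12.24 ± 0.07 (SD, n = 3 each), and did not overlap. Notch2 fell by 0.49 (SE 0.08, limma adjusted p = 0.00275), or 1.41-fold. The median difference of all probes tested was -0.09. A second Notch2 probe (A_55_P2736859, Ensembl transcript ENSMUST00000198324), 49.4 kb away, was below background on all 6 arrays.

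Of the ligands, Dll4, Dll1 and Jag1 rose on arrays labelled Ctsk-Cre;Ano1fl/fl, and both Delta-like genes were read on those arrays alone. Dll4 is the Delta-like ligand of sprouting endothelium and of the thymic and marrow niches. Its probe (A_51_P384402, position 2827 of NM_019454, chr2:119160779-119160838) read 3.17, 3.09 and 5.74 on the Ano1fl/fl arrays, none well above background, against 71.3, 73.7 and 62.6 on the Ctsk-Cre;Ano1fl/fl arrays. Since the lowest signal well above background was 15.0 to 18.4 on an array, the Ano1fl/fl value is only a ceiling, and Dll4 was at least 4.79-fold higher (limma adjusted p = 3.38e-05). This limit sets the bright group against the lowest normalized signal well above background on each dim array. The measured log2 means were 1.93 ± 0.38 and 6.23 ± 0.22 (SD, n = 3 each).

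Dll1, a Delta-like ligand that stromal and progenitor cells make, had signals of 3.32, 5.65 and 5.40 on the Ano1fl/fl arrays, none well above background, against 39.0, 23.5 and 55.1 on the Ctsk-Cre;Ano1fl/fl arrays (A_51_P306017, position 3063 of NM_007865, chr17:15504623-15504682). The 3 Ctsk-Cre;Ano1fl/fl arrays each passed the background mark but spread more than for Dll4. Dll1 was at least 2.53-fold higher (limma adjusted p = 0.00042), with measured log2 means of 2.21 ± 0.34 and 5.31 ± 0.56 (SD, n = 3 each). Its other probe (A_55_P1986900, Ensembl transcript ENSMUST00000143460), 9.0 kb away, was below background on all 6 arrays, so the rise of Dll1 rests on 1 of its 2 probes.

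Jag1, the ligand most studied in bone and marrow stroma, was measured on every array (A_52_P634090, position 5187 of NM_013822, chr2:136907433-136907492). Its signals were 668, 662 and 645 on the Ano1fl/fl arrays, against 1071, 845 and 812 on the Ctsk-Cre;Ano1fl/fl arrays. The highest Ctsk-Cre;Ano1fl/fl array stood somewhat above the other two, and the groups did not overlap. The log2 means were 9.27 ± 0.19 and 9.92 ± 0.17 (SD, n = 3 each), and Jag1 rose by 0.65 (SE 0.14, limma adjusted p = 0.00775), or 1.57-fold.

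Jag2, the other Jagged ligand, was at the edge of detection (A_51_P451338, position 3908 of NM_010588, chr12:114146887-114146946). Its signals were 6.50, 4.76 and 3.78 on the Ano1fl/fl arrays, against 16.4, 12.2 and 17.6 on the Ctsk-Cre;Ano1fl/fl arrays, of which 2 were well above background. It did not meet the filter, and its lower limit was 1.01-fold. Without a filter it was called higher (limma adjusted p = 0.0151). Without Ctsk-Cre;Ano1fl/fl replicate 2 it met the filter through the Ctsk-Cre;Ano1fl/fl arrays alone, so it had to differ, and its call there is no support.

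The targets Hes1 and Hey1 encode basic helix-loop-helix repressors that Notch signaling switches on. Hey1 (A_51_P258409, position 2072 of NM_010423, chr3:8663432-8663491) had signals of 28.1, 35.3 and 30.3 on the Ano1fl/fl arrays, against 64.6, 55.5 and 46.8 on the Ctsk-Cre;Ano1fl/fl arrays. All 6 arrays were well above background and the groups did not overlap. The log2 means were 4.88 ± 0.17 and 5.90 ± 0.21 (SD, n = 3 each), and Hey1 rose by 1.02 (SE 0.14, limma adjusted p = 0.00156), or 2.03-fold. Hes1 (A_55_P2046245, position 1388 of NM_008235, chr16:30067820-30067879) stayed below the mark for well above background on all 6. It read 3.24, 3.14 and 3.79 on the Ano1fl/fl arrays, against 13.5, 4.34 and 8.08 on the Ctsk-Cre;Ano1fl/fl arrays, and no fold is given for it.

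**Figure D2:**
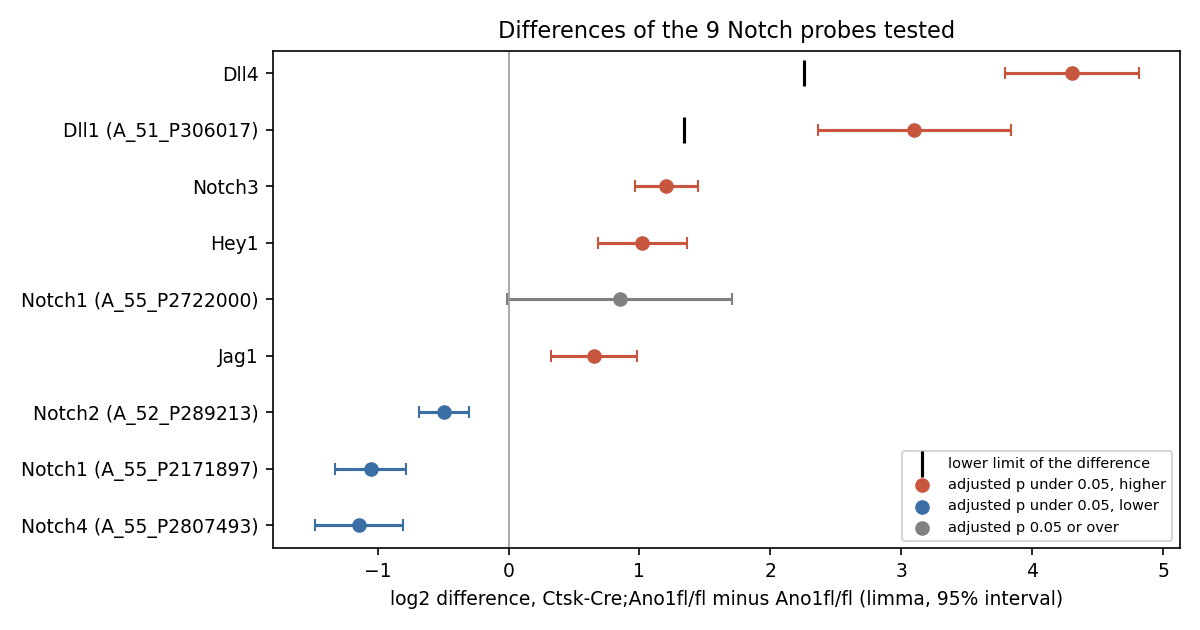
Log2 difference, Ctsk-Cre;Ano1fl/fl minus Ano1fl/fl (x axis), of the 9 probes tested, with the 95% interval from limma, red for higher and blue for lower at an adjusted p under 0.05 and grey for the rest. Black bars mark the lower limits of Dll4 and Dll1, neither of which passed the background mark on an Ano1fl/fl array, and the grey Notch1 probe is the one whose interval reaches 0.

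The background treatment changed the size of the dim differences. With normexp background correction at an offset of 50, which adds a constant to every signal, the log2 difference of Dll4 was 1.07, that of Dll1 0.61 and that of Hey1 0.41, and with the series matrix values, which carry no background subtraction, they were 1.73, 0.93 and 0.65. Notch3 was 1.14 and 1.17 under these settings, and Notch2 was -0.50 and -0.51. Over the 6 probes well above background on all 6 arrays, 101 of 102 values under the alternatives kept both direction and call, and the exception was the mean of the Notch1 probes given above. Dll1, Dll4 and the Notch1 probe close to background met the filter through the Ctsk-Cre;Ano1fl/fl arrays and are left out of this count. With the replicate block that Notch1 probe was called higher.

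**Figure D3:**
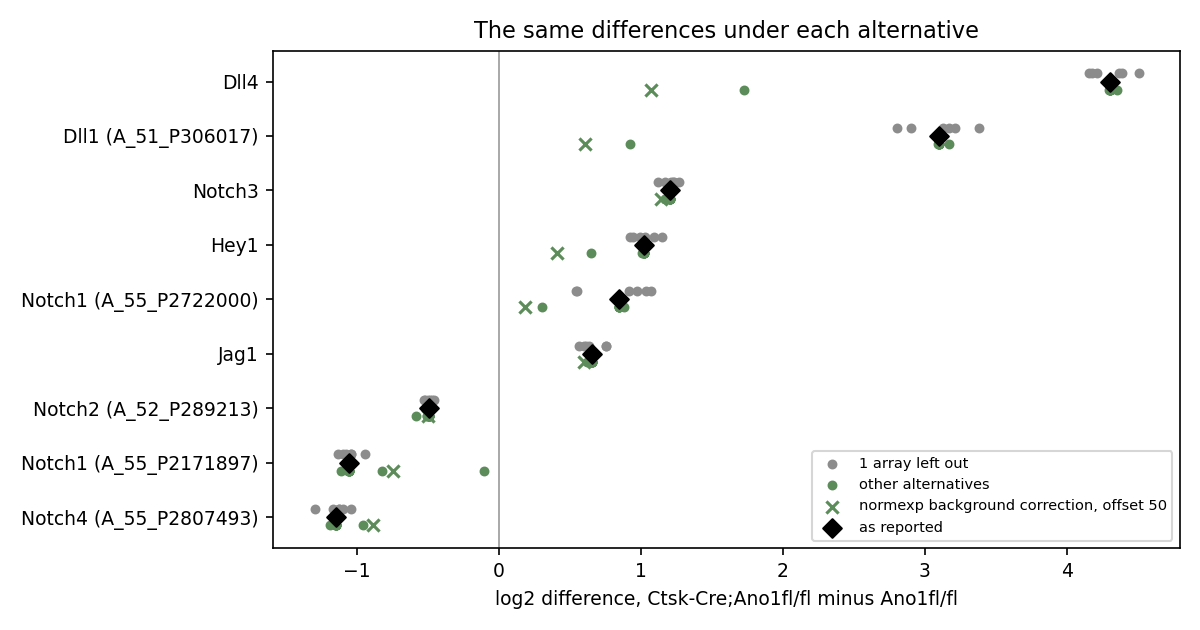
Log2 difference, Ctsk-Cre;Ano1fl/fl minus Ano1fl/fl (x axis), of the 9 probes as reported (black diamonds), with 1 array left out (grey) and under the other alternatives (green, with crosses for normexp background correction). Dll4, Dll1 and Hey1 shrink with normexp to 1.07, 0.61 and 0.41, the green point of Notch1 (A_55_P2171897) near 0 is the mean of both Notch1 probes, and no point changes side.

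The rest of the pathway was followed with a list of 64 genes grouped by role, each represented by its tested probe with the highest mean signal. In all, 58 were tested, of which 13 were higher, 21 were lower and 24 did not pass. Over all 20650 genes represented this way 23.0% were called higher and 28.5% lower, so the list's shares lie near those of all genes. The groups did not overlap in 42 of the 58, where they did not in 64.0% of all genes. The median difference was -0.09 over the list and -0.06 over all genes.

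The Hes and Hey family held a large rise. Of 7 further members, 4 were tested, and 2 were higher and 2 lower. Hes5, a Notch target known from neural and hematopoietic progenitors, had signals of 36.2, 33.5 and 44.7 on the Ano1fl/fl arrays, against 369, 168 and 449 on the Ctsk-Cre;Ano1fl/fl arrays. The lowest of these 3 was still several times the highest Ano1fl/fl value. Hes5 rose by 3.20 (SE 0.30, limma adjusted p = 0.00034), or 9.16-fold. This size depends on the background treatment, since the difference of Hes5 was 1.98 with normexp and 2.39 with the series matrix values, and the call held in both. Hes7, known from the segmentation clock, rose by 1.04 (SE 0.15, limma adjusted p = 0.00178). Hes2 fell by 0.42 (limma adjusted p = 0.0453), but lost the call under 11 of the 17 alternatives that refitted the data, at adjusted p of 0.123 without Ano1fl/fl replicate 1, 0.12 without Ano1fl/fl replicate 2, 0.121 without Ctsk-Cre;Ano1fl/fl replicate 1 and 0.112 without Ctsk-Cre;Ano1fl/fl replicate 3. Hes3, Hey2 and Heyl were below background on all 6 arrays.

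The start of Hes5 is shown because Hes5 had the largest rise among the Hes and Hey genes and its upstream sequence holds the core bound by RBPJ. The 250 bases before the start site come from RefSeq on GRCm38.p6, chr4:154960673-154960922, plus strand, and are not placed on the mm9 coordinates of the arrays. Capitals mark the letters TGGGAA or, for the other strand, TTCCCA, which stand 82 and 226 bases before the start. RefSeq also lists bases of the gene up to 297 bases before this start.
Hes5: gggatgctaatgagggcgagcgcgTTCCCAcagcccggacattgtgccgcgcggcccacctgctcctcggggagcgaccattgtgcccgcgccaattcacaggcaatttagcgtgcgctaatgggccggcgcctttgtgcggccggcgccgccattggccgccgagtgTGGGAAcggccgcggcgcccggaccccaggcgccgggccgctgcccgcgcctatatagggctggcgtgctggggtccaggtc

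The same 6 letters were searched on both strands in windows from 250 bases before to 50 bases after each start. Of all 32851 such windows, 25.6% held at least 1 match and 3.79% held 2 or more. The table had windows for 8 of the 10 receptor, ligand and target genes (all but Hes1 and Hey1), and 0 of their 9 windows held a match. Of the pathway list, 52 genes had 70 windows, and 28.6% of these held a match. A match is a description of the letters and not evidence of binding, and no match says only that these letters are not in the window.

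Among genes that restrain the pathway or turn its proteins over, 3 of the 10 tested were higher and 2 lower. Dtx1 encodes Deltex 1, a ubiquitin ligase that binds the Notch intracellular domain and is itself a known Notch target in lymphocytes. Its signals were 126, 135 and 136 on the Ano1fl/fl arrays, against 2664, 1493 and 3072 on the Ctsk-Cre;Ano1fl/fl arrays. All 3 Ano1fl/fl values were close together, and Dtx1 rose by 4.37 (SE 0.21, limma adjusted p = 2.96e-05), or 20.7-fold, where normexp gave 3.77. Its relative Dtx2 rose by 1.67 (SE 0.07, limma adjusted p = 2.09e-05), from 4985, 6388 and 6442 to 16240, 14100.0 and 16200.0. Numb, an endocytic adaptor that antagonises Notch, fell by 1.02 (SE 0.17, limma adjusted p = 0.00295). Nrarp, a small feedback inhibitor and a common Notch target, was below background on all 6 arrays.

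Of 3 further ligands, Dlk1, a Delta-like protein of preadipocytes and stroma that lacks the domain with which canonical ligands bind Notch, was higher. It read 3.20, 15.1 and 7.04 on the Ano1fl/fl arrays, none well above background, against 721, 328 and 576 on the Ctsk-Cre;Ano1fl/fl arrays. Dlk1 was at least 35.0-fold higher (limma adjusted p = 0.000219). Its log2 difference was 6.36 in the reported fit, where the Ano1fl/fl value is background, 3.09 with normexp and 3.87 with the series matrix values. Both probes of Dlk1 passed the filter through the Ctsk-Cre;Ano1fl/fl arrays alone and so had to differ. Dll3 was below background on all 6 arrays.

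By each gene's brightest probe, all 4 calls among the 6 genes of receptor maturation were lower, and they included the 3 Fringe enzymes, which add sugars that set how Notch receptors answer Delta-like and Jagged ligands. Mfng fell by 1.05 (SE 0.16, limma adjusted p = 0.00235), from signals of 3659, 5467 and 5382 to 2276, 1354 and 2302. Lfng fell by 1.03 (SE 0.14, limma adjusted p = 0.00132), from 1188, 1543 and 1478 to 544, 596 and 635. Rfng fell by 0.53 (SE 0.08, limma adjusted p = 0.00228). In each of the 3 the groups did not overlap, and each call held under all 17 refits. Among the genes not called by their brightest probe, a dimmer probe was called higher for the fucosyltransferase gene Pofut1 (A_55_P2154570, 0.43, limma adjusted p = 0.00587) and for the convertase gene Furin (A_51_P400107, 0.42, limma adjusted p = 0.0169). The other dimmer Pofut1 probes lay below 0 and did not pass, at -0.12 (A_55_P2732146, limma adjusted p = 0.568) and -1.14 (A_55_P2714592, limma adjusted p = 0.0625).

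Of the 9 genes for enzymes that cut the receptor, 2 were higher and 4 lower by their brightest probe. One of the 2, Aph1b, named after its values were seen, was at 0.37 (limma adjusted p = 0.0494) and not called with 75th percentile scaling (limma adjusted p = 0.0533). Its dimmer probe (A_55_P2082679) was called lower at -1.36 (limma adjusted p = 0.000314). That probe met the filter through the Ano1fl/fl arrays alone, where it is high, so its call is no support. Psen2, a catalytic subunit of gamma-secretase, rose by 1.05 (SE 0.13, limma adjusted p = 0.0011), and Aph1a and Aph1c, subunits that stabilise the complex, fell by 1.14 (SE 0.22, limma adjusted p = 0.00625) and 0.75 (SE 0.10, limma adjusted p = 0.00153). Adam10, the protease of the ligand-dependent first cut, fell by 0.53 (SE 0.08, limma adjusted p = 0.00244). Adam17 (-0.03, limma adjusted p = 0.886) and Ncstn (-0.03, limma adjusted p = 0.771) did not pass. The mean of all Adam17 probes gave -0.37 (limma adjusted p = 0.0486).

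Among genes of ligand endocytosis, by which the sending cell pulls on the receptor, 2 of 6 were higher and 3 lower. Epn2, an epsin adaptor, rose by 2.19 (SE 0.10, limma adjusted p = 2.66e-05), from 1024, 1080.0 and 1051 to 4403, 3891 and 3917. Neurl1b, a Neuralized ubiquitin ligase of Delta ligands, fell by 2.69 (SE 0.37, limma adjusted p = 0.00156), from 2477, 1693 and 1174 to 302, 148 and 259. Its relative Neurl1a fell by 1.26 (SE 0.11, limma adjusted p = 0.000298). The groups of all 3 genes lay apart.

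In the nuclear complex the differences of each gene's brightest probe were all under 2-fold. Rbpj, the DNA-binding partner of cleaved Notch, rose by 0.54 (SE 0.09, limma adjusted p = 0.00316), while its other probe gave 0.17 (limma adjusted p = 0.277). Maml1, a Mastermind coactivator, fell by 0.34 (SE 0.07, limma adjusted p = 0.00758), and the acetyltransferases Kat2b and Kat2a fell by 0.62 (limma adjusted p = 0.00348) and 0.59 (limma adjusted p = 0.00131). Crebbp, a further acetyltransferase, was called higher at 0.55 (limma adjusted p = 0.00201) by its brightest probe, but lower at -0.31 (limma adjusted p = 0.0434) by the mean of its probes. Its dimmest probe (A_55_P2714384), above the background mark on 1 of the 3 Ctsk-Cre;Ano1fl/fl arrays, was at -1.17 (limma adjusted p = 0.0081). That probe met the filter through the Ano1fl/fl arrays alone and so had to differ. Since the mean of the Crebbp probes includes it, the call by the mean is no support. Ep300, a related acetyltransferase, was called lower at -0.50 (limma adjusted p = 0.00882) by its brightest probe. Of its 3 dimmer probes 1 was called higher at 0.47 (A_55_P2805553, limma adjusted p = 0.00762), 1 did not pass, and 1 (A_51_P142128) was called lower but met the filter through the Ano1fl/fl arrays alone and so had to differ. Of the 9 genes tested in this group 2 were higher and 4 lower, and both probes of Rbpjl were below background on all 6 arrays.

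By each gene's brightest probe most corepressors did not pass, with 1 of 12 higher and 2 lower. Among the genes that did not pass, a dimmer probe was called lower for Spen (A_55_P2717219, -0.82, limma adjusted p = 0.00205) and for Tle4 (A_55_P2727993, -0.71, limma adjusted p = 0.00619). Dimmer probes of Ncor1 were called in both directions (-0.39, limma adjusted p = 0.0118, and 0.25, limma adjusted p = 0.0429). Cir1, an RBPJ-binding corepressor, fell by 0.64 (limma adjusted p = 0.00159), but the mean of its probes gave -0.17 (limma adjusted p = 0.392). Tle1, a Groucho corepressor that Hes proteins recruit, fell by 0.61 (limma adjusted p = 0.0159), and its adjusted p was 0.0548 without Ano1fl/fl replicate 2, 0.0546 without Ano1fl/fl replicate 3 and 0.0508 without Ctsk-Cre;Ano1fl/fl replicate 1. Tle3 was called higher at 0.55 (limma adjusted p = 0.0259), but lost the call under 7 of the 17 refits. The mean of its probes gave 0.22 (limma adjusted p = 0.127), and 2 of its 4 probes were below 0 and did not pass. The call was also lost without a filter and with the methods' t-test, and its adjusted p was 0.0622 and 0.0813 without Ano1fl/fl replicates 1 and 2 and 0.0668 and 0.0664 without Ctsk-Cre;Ano1fl/fl replicates 1 and 3.

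**Figure D4:**
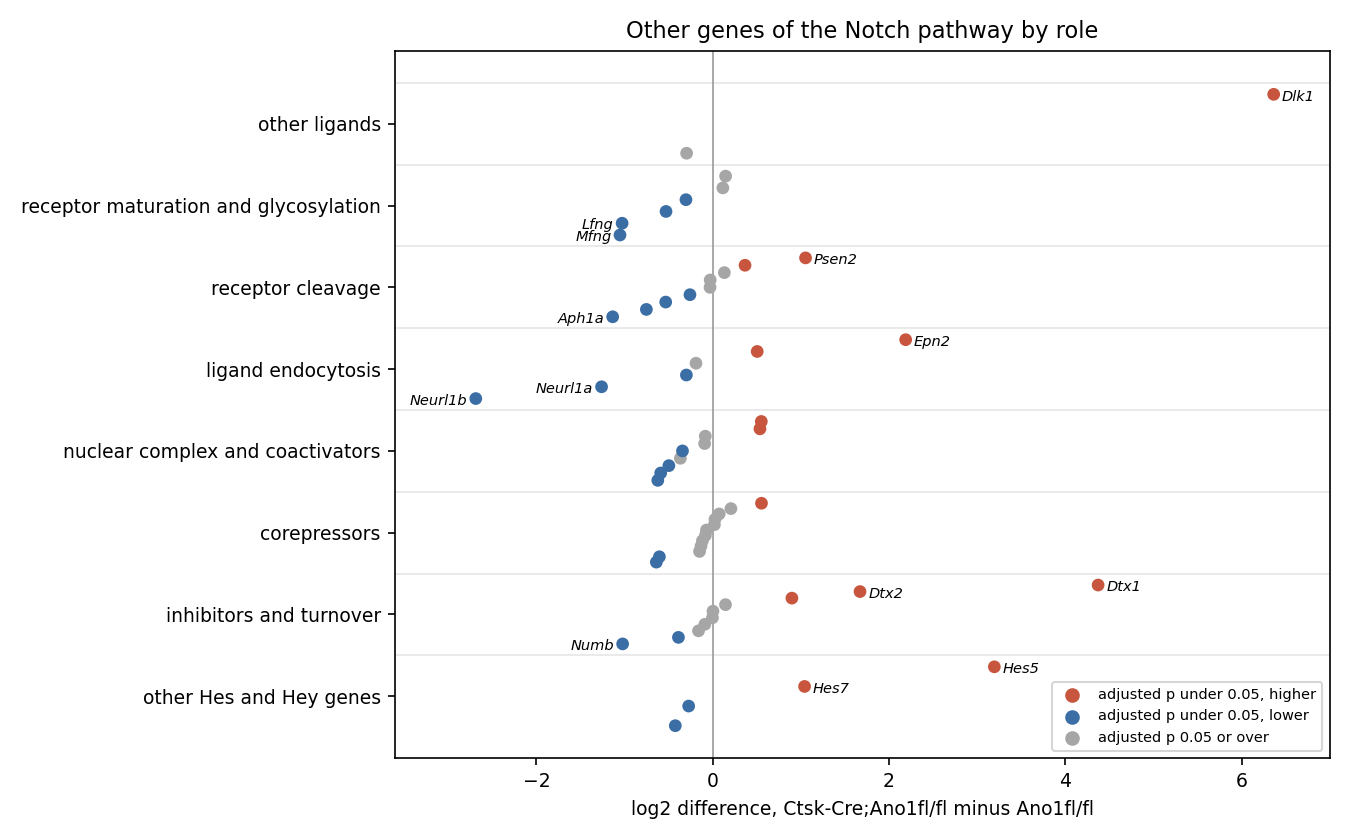
Log2 difference, Ctsk-Cre;Ano1fl/fl minus Ano1fl/fl (x axis), of the 58 further pathway genes tested, 1 point per gene by role, red for higher and blue for lower at an adjusted p under 0.05 and grey for the rest. Dlk1, Dtx1 and Hes5 stand farthest to the right and Neurl1b farthest to the left, and the calls in receptor maturation, each by the gene's brightest probe, are blue.

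Markers of the cell types in which these genes are best known were set beside them. Over all 20650 genes by brightest probe, 23.0% were called higher, 28.5% lower and 51.6% in either direction. The endothelial and macrophage lists did not exceed that last share. For stromal cells and osteoblasts, 12 of 15 markers tested were higher and 2 lower. Of the 12, Lum, Pdgfra and Postn met the filter through the Ctsk-Cre;Ano1fl/fl arrays alone and so had to differ. The summed normalized signal of the list was 3678 to 4613 on the Ano1fl/fl arrays, against 65700.0 to 108000.0 on the Ctsk-Cre;Ano1fl/fl arrays. Sparc, a matrix protein of bone, rose by 4.82 (limma adjusted p = 4.06e-05) and Fn1, fibronectin, by 3.75 (limma adjusted p = 6.65e-05). Lepr, the leptin receptor of marrow stroma, fell by 0.69 (limma adjusted p = 0.0112). Runx2, an osteoblast transcription factor, was at -0.46 (limma adjusted p = 0.0485) but was not called with 75th percentile scaling (limma adjusted p = 0.0569), normexp (-0.11, limma adjusted p = 0.185) or the series matrix values (-0.19, limma adjusted p = 0.117). Sp7, another such factor, was at -0.08 (limma adjusted p = 0.643), and all 3 were named after their values were seen. The summed signal of the list was higher where Dll1, Dll4, Jag1, Notch3, Hey1 and Dlk1 were higher. Its part in their rise was not tested.

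For mural cells, 3 of 6 markers tested were higher and 1 lower, with sums of 59260.0 to 64120.0 and 86540.0 to 104100.0. Acta2, smooth muscle actin, rose by 0.54 (limma adjusted p = 0.00217), and Mcam was called higher at 0.45 (limma adjusted p = 0.0266) but not with 75th percentile scaling (0.34, limma adjusted p = 0.0891). These are the brightest genes and probes. A dimmer Acta2 probe (A_52_P420504) rose by 3.64 (limma adjusted p = 2.88e-05). Tagln, transgelin, rose by 5.08 (limma adjusted p = 1.32e-05) and both Tagln and Kcnj8 were named after their values were seen. Kcnj8, a dim probe above the background mark on 2 of the 3 Ctsk-Cre;Ano1fl/fl arrays, fell by 0.81 (limma adjusted p = 0.0115), but its difference was -0.22 with normexp and -0.41 with the series matrix values. It met the filter through the Ano1fl/fl arrays alone, where it is high. The mural genes Rgs5, Des and Abcc9 were below background on all 6 arrays. The sum was higher where Notch3 was higher, and its part was not tested.

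For endothelial cells, 1 of 7 markers tested was higher and 2 lower, with sums of 6730.0 to 8306 on the Ano1fl/fl arrays, against 3488 to 4071 on the Ctsk-Cre;Ano1fl/fl arrays. Kdr, the main VEGF receptor, fell by 1.32 (limma adjusted p = 0.00043) and Vwf, von Willebrand factor, by 0.97 (limma adjusted p = 0.00135). Pecam1, an adhesion molecule also made by cells of blood origin and named after its value was seen, rose by 0.91 (limma adjusted p = 0.00603), and Egfl7, Esam, Cdh5 and Emcn did not pass, with differences of -0.39 to -0.04. The endothelial genes Tek and Tie1 were below background on all 6 arrays. The sum follows Kdr and Vwf, the brightest of the list, and is lower where Notch4 is lower, whereas Pecam1 and Dll4 rose. The part of endothelial RNA in these values was not tested.

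Among the lists of cells of blood origin, the osteoclast and neutrophil sums lay apart between the groups. Neutrophil sums were 315200 to 331400 on the Ano1fl/fl arrays, against 212000 to 264500 on the Ctsk-Cre;Ano1fl/fl arrays. Macrophage sums overlapped, at 377200 to 393700 against 384700 to 430100. T cell sums barely parted, at 19680 to 21790 against 17850 to 19660. Osteoclast markers summed to 223000.0 to 240700.0 on the Ano1fl/fl arrays, against 624300.0 to 706300.0 on the Ctsk-Cre;Ano1fl/fl arrays, and Acp5, tartrate-resistant acid phosphatase, rose by 0.84 (limma adjusted p = 0.000284) and Tcirg1, a proton pump subunit, by 0.59 (limma adjusted p = 0.00196). These are the brightest of the list, whose median difference was 2.85. The range ran from -0.40 (Tnfrsf11a) to 8.89 (Calcr, the calcitonin receptor, above the background mark on 2 of the 3 Ano1fl/fl arrays), with Ctsk, whose promoter drives Cre here, at 3.17 and Mmp9 at 4.36, all 4 named after their values were seen. Of 9 macrophage markers 1 was higher and 3 lower, and Csf1r (-0.04, limma adjusted p = 0.743) and Cd68 (0.20, limma adjusted p = 0.0711) did not pass. The 1 called higher was Adgre1, at 0.80 (limma adjusted p = 0.00071), while Cx3cr1, a chemokine receptor of monocytes, fell by 4.62 (limma adjusted p = 4.66e-05). Of 9 neutrophil markers 1 was higher and 6 lower, where S100a8 fell by 0.60 (limma adjusted p = 0.00131) and S100a9 was at 0.20 (limma adjusted p = 0.25). The granule enzyme genes Mpo (-3.40, limma adjusted p = 0.000177), Elane (-3.25, limma adjusted p = 0.000103) and Prtn3 (-3.46, limma adjusted p = 0.000351) fell. Ltf was called higher at 0.33 (limma adjusted p = 0.0288), but not with 75th percentile scaling (limma adjusted p = 0.0616), and Camp did not pass (-0.12, limma adjusted p = 0.3). Like Adgre1 and Cx3cr1, these 5 were named after their values were seen. Of 7 T cell markers 1 was higher and 3 lower, Il7r at -0.39 (limma adjusted p = 0.00903) and Lck at 2.67 (limma adjusted p = 0.000265). Their part in the Notch values was not tested.

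**Figure D5:**
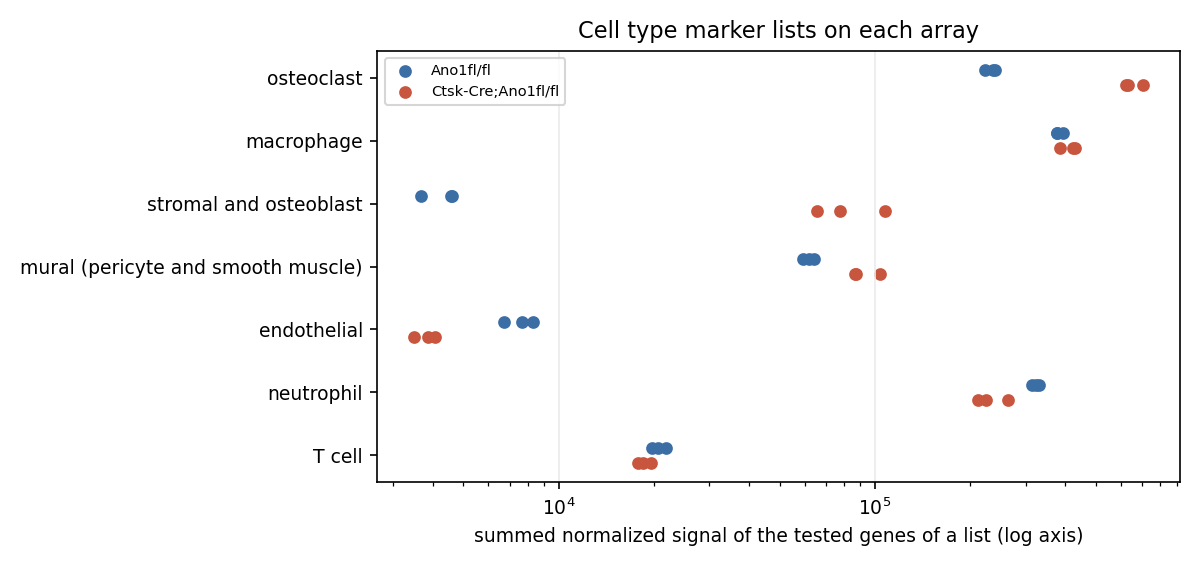
Summed normalized signal of the tested genes of each marker list (x axis, log scale) on each of the 6 arrays, blue for Ano1fl/fl and red for Ctsk-Cre;Ano1fl/fl. The stromal and osteoblast sums show the widest gap between the groups, 3678 to 4613 against 65700.0 to 108000.0, the endothelial sums are lower in red, and no list serves as a test of the Notch genes.

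The genes whose values over the 6 arrays ran closest to Dll4 and Notch4 were found by the Euclidean distance between log2 values, each centred on its mean, among 13769 named genes. For Dll4 these were Ppm1n (distance 0.31, log2 difference 4.29), Dgki (0.37, 4.49) and Gpr176 (0.41, 4.41). For Notch4 they were F5, coagulation factor V (distance 0.18, log2 difference -1.17), Zfp395 (0.19, -1.16) and Amer1 (0.19, -1.22). The list describes likeness over 6 arrays in 2 groups, on which many genes share a pattern. Dll4 and Dgki were at background on the Ano1fl/fl arrays, so their differences here are fitted values and not limits.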

How the data were processed

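The authors deposited scanner intensities read with Agilent Feature Extraction 10.7.1.1 (submitters' processing notes) from a one-colour Agilent SurePrint mouse array. The processed intensity has background and within-array trends removed and was not normalized between arrays. In the deposited series matrix the intensity of each of 62973 spots equals the spot's median brightness (largest difference 0). Here control spots were left out, outlier spots were set missing, log2 values were quantile normalized with limma 3.58.1 (R 4.3.3), as the methods name, and spots of a probe were averaged. A probe counted as well above background where at least 0.5 of its spots were. Groups were compared with lmFit and eBayes, after a check on simulated data. The methods' t-test gave p under 0.05 for 8 of the 9 Notch probes and for 17683 of all probes, and for 8 and 14549 after Benjamini-Hochberg adjustment.

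With 3 mice a group, a two-sided exact permutation p cannot fall under 0.1, and the number of arrays limits precision. The genes, lists and alternatives were chosen with earlier results of these data known. All probes of the 10 genes are named. Of the pathway list, up to 3 called genes a role with groups apart are named by size of difference, with 10 fixed genes, and of each marker list the 2 brightest. The value of 1 of the fixed genes is not reported here. Gene names and positions (mm9) were taken as the array files give them, and all 11 RefSeq accessions of the 15 probes matched the same symbol in RefSeq. Sequences are from the array files and RefSeq. Further software was pandas 2.3.3, matplotlib 3.10.9 and the data.table package (1.17.8).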

Additional observations from a re-analysis of the deposited data

How the results depend on the processing

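Asking for a signal well above background on all 6 arrays left 3 Notch probes called higher, because Dll1 and Dll4 were then not tested. Asking for more than 2-fold left 7 pathway genes higher and 6 lower, 13 of 58, where 17.1% of all 20650 genes were called at that size. With 1 array left out, 5 to 6 Notch probes were higher and 3 lower (Jag2 is the added one, which met the filter only through the group where it is high), and 11 to 12 pathway genes were higher and 15 to 18 lower. Under the 75th percentile, normexp and series matrix alternatives the counts of Notch probes were 5 higher and 3 lower, as in the reported fit, and the median difference of all probes was -0.14, -0.06 and -0.07. Same-numbered replicates did not deviate together (r of -0.02, -0.08 and -0.09). This cannot show whether the numbers pair littermates, and the pairing of the mice stays unknown. With the replicate block, 6 Notch probes were higher, and 12 pathway genes were higher and 17 lower. The added Notch probe, Notch1 A_55_P2722000 (limma adjusted p = 0.0291), met the filter only through the group where it is high, so its call there is no support. Probes near background, Hes1, Jag2 and the ceilings of Dll1 and Dll4 among them, have values limited by signal over background.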
